A study of Mus musculus with 2 samples.

Results

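The regions described here are pairs of H3K4me1-marked stretches that stand alone on an autosome with a short unmarked gap, or dip, between them. H3K4me1 is histone H3 carrying a single methyl group on lysine 4, and the marked regions were those called by the authors in mouse pre-B cells. Pairs were chosen by position and length: neighbouring regions with a gap of 1000 to 3000 bases, both 1000 to under 10000 bases long, and with the next region on either side more than 5000 bases away. The rule gave 1201 pairs, or 2402 regions, out of 48130 regions in the whole list and 46934 on the 19 autosomes. Lone regions, of the same lengths and with more than 5000 bases free on both sides, numbered 11639 and served as the reference.

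The series holds 1 H3K4me1 library and 1 input library, the latter made without antibody, so no spread between replicates could be measured. Both came from pre-B cells of the bone marrow of C57BL/6 (B6) mice with the genotype RAG1-/-, aged 6 to 14 weeks and of both sexes. All of these mice also carried a rearranged IgM transgene (RAG-/-µ+), and the number of mice is not given in the sources used here. Rag1 encodes part of the recombinase that cuts antigen receptor genes, so cells without it make no heavy chain of their own, and a heavy-chain transgene lets B cell development go on to the pre-B stage. The H3K4me1 library held 50945360 tags, of which the file header places 15701950 in peaks. The labelled cell type was not checked against marker genes, because gene positions on mm9, the build of the list, were not used here.

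H3K4me1 marks enhancers and the shoulders of active promoters. At an active start site the nucleosomes beside the start tend to carry trimethylation of the same lysine instead, and the start itself is poor in nucleosomes, so the monomethyl mark often shows as 2 shoulders around a dip. Enhancers can show a narrower dip over the nucleosome-depleted core where transcription factors bind. A pair of regions around a gap has the outline of such shoulders, but the outline alone does not tell a promoter from an enhancer or from 2 separate elements, and whether a start site lay in any dip was not analysed here.

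The dip is a stretch without a called region, not one shown to lack the mark. Per the file header, a window of 500 bases needed at least 26 tags to count as a peak, where 12.582 were expected from uniform coverage, and peaks were stitched into regions. A dip may therefore hold tags below that threshold. It may also hold a stretch that was removed against input, of which the header counts 2713 in all. The tag counts inside members and dips were not used here.

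Few neighbouring regions met the rule. Of 46915 gaps between neighbours on the autosomes, 8056 (17.2%) were 1000 to 3000 bases wide. In 3982 of these 8056 cases (49.4%) at least 1 of the regions was under 1000 bases long, and in a further 436 at least 1 was 10000 bases or longer. That left 3638 neighbours with lengths in bounds, of which 2437 (67.0%) had another region within 5000 bases on at least 1 side. The 1201 remaining pairs made up 14.9% of the gaps of that width. They covered 6.50 Mb, which is 6.02% of the marked bases on the autosomes, and their dips summed to 2.13 Mb.

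Each bound cut through a continuous range. The pair with the narrowest dip, 1000 bases, lay on chromosome 10 from 98840757 to 98849190 (coordinates here and below are on mm9 and count from 1). A pair on chromosome 11 from 69608161 to 69618239 stayed outside with a gap of 999 bases. At the upper bound the widest dip was 2999 bases, and the nearest pair outside had 3005. The shortest member was 1004 bases long and the longest 9994, beside 998 and 10065 bases in the nearest pairs that failed on length. The smallest outer gap was 5.004 kb, on chromosome 3 beside the pair from 94817189 to 94821916, and the nearest pair outside that bound had 4.999 kb.

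Most dips were narrow, and no width stood out. The median dip was 1638 bases wide (95% interval of the median 1579 to 1690 bases), with 25th and 75th percentiles of 1273 and 2225 bases. All intervals here cover counting error only and treat regions as independent. Dips of 1000 to 1250 bases made up 23.1% of pairs (Wilson 95% interval 20.8 to 25.6%), and those of 2750 to 3000 bases made up 9.08% (7.58 to 10.8%). The 8056 gaps of that width among all neighbours also leaned to narrow widths but less so, with a median of 1742 bases (1719 to 1765) and 20.3% at 1000 to 1250 bases. Pairs made up 17.0% of the gaps of 1000 to 1250 bases and 12.1% of those of 2250 to 2500 bases, the highest and lowest shares. The share did not fall steadily with width and was 15.2% at 2750 to 3000 bases. Because the rule sets both ends of the range, the median dip is a property of the rule as well as of the cells.

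Without the bounds on width, isolated neighbours of the same lengths were most frequent at narrow gaps. They numbered 481 at gaps of 600 to 800 bases, below the rule's range, 234 at 1000 to 1200 and 109 at 1800 to 2000 bases. Wider gaps gave 75 for 2200 to 2400 bases, 85 for 2800 to 3000 and 96 for 3200 to 3400. The shortest gap anywhere on the autosomes was 499 bases, and the header sets a minimum distance of 1000 bases between peaks of 500 bases. The bin of 400 to 600 bases held 303 isolated pairs, all in its part from 499 bases upwards. Its count is therefore not comparable with the 481, and no maximum at 600 to 800 bases is shown. The range of 1000 to 3000 bases thus lay on the falling side of this distribution and held no peak of its own.

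**Figure D1:**
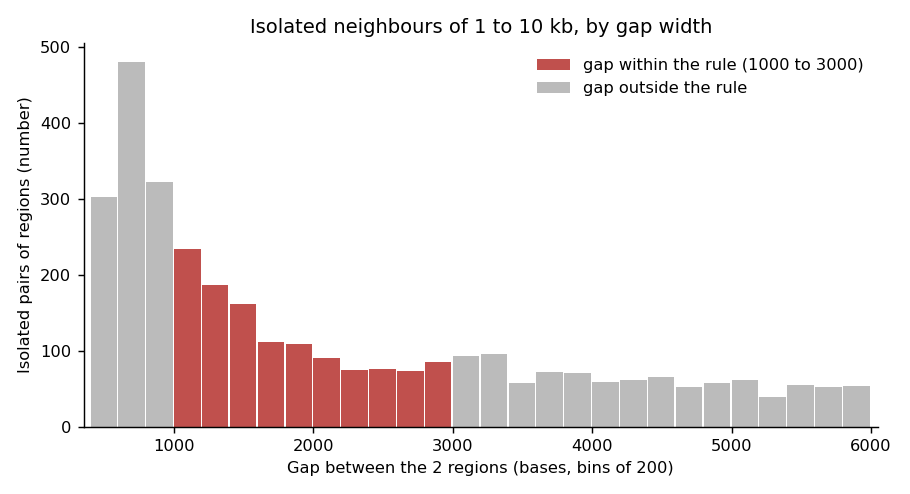
Number of isolated pairs of regions (both 1000 to under 10000 bases long, over 5000 bases free on each outer side) by the gap between them, in bins of 200 bases; red bars are the pairs within the rule and grey bars those outside it. The count falls from 481 at 600 to 800 bases to 75 at 2200 to 2400 bases and shows no separate peak between 1000 and 3000.

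Paired regions had nearly the same median length as lone regions under the bounds of the rule, but a larger share of long regions. Their median length was 2119 bases (2061 to 2191), beside 2097 bases (2072 to 2121) for lone regions held to the same bounds. The ratio of the medians, 1.01 (0.97 to 1.06), depended on the bounds: it was 1.09 (1.04 to 1.14) with members of at least 1500 bases and 0.92 (0.88 to 0.95) with gaps of 500 to 4000 bases. The upper part differed: the 75th percentile was 3344 bases for paired and 2983 for lone regions, and the 90th percentile 5190 and 4310 bases. Regions of 4000 to under 10000 bases were 418 of 2402 among the paired (17.4%) and 1441 of 11639 among the lone (12.4%). The difference was 5.02 percentage points (Newcombe 95% interval 3.44 to 6.70). Isolated pairs with wider gaps, over 3000 to 5000 bases, had a similar share of such regions, 17.2%, and those with gaps under 1000 bases had 10.5%.

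Isolated pairs also had longer regions than lone ones when the length bounds were dropped, apart from those with the narrowest gaps. Isolated runs of exactly 2 regions of any length with a gap of 1000 to 3000 bases numbered 2595, and in 1201 of them (46.3%, 44.4 to 48.2%) both regions were within the bounds. For gaps under 1000 bases that share was 46.6%, and for gaps over 3000 to 5000 bases 46.3%. Of the 18514 lone regions of any length 62.9% were within the bounds, whose square, the share for 2 independent lone regions, is 39.5%. Median lengths over these runs were 1312 bases at gaps under 1000, 1570 at 1000 to 3000 and 1651 at over 3000 to 5000, beside 1391 for lone regions. Regions of 501 bases, the shortest length in the list, made up 10.2, 13.4 and 14.9% of the members of these runs in the same order and 16.3% of lone regions.

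A whole pair, from the outer edge of the left region to that of the right, spanned a median of 6575 bases, with 10th and 90th percentiles of 4292 and 10999. Left means the lower coordinate throughout, since no strand is known. The dip took up 26.1% of the span at the median, and between 5.68 and 56.4% over all pairs. Within a pair the longer region had a median length of 2946 bases and the shorter one 1560.

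The pair with the most marked bases lay on chromosome 10. Its left region ran from 19709078 to 19716851 and its right region from 19717897 to 19727480, 17.4 kb of marked sequence around a dip of 1045 bases, which was the smallest dip share of all, 5.68%. On chromosome 8, from 86257921 to 86275984, regions of 9935 and 7019 bases flanked a dip of 1110 bases. The third, on chromosome 7 from 51775711 to 51793960, had 9553 and 7375 bases around 1322, with the next region 22.6 kb to the left and 7.76 kb to the right. A pair on chromosome 4, from 102174411 to 102192616, had 6889 and 9936 bases around 1381 and stood 472.8 kb from its left neighbour. The remaining 2 of the 6 most covered pairs lay on chromosome 7 (134220222 to 134237597, dip of 1176 bases) and chromosome 4 (62862747 to 62880579, dip of 1991 bases). In these 6 pairs the longer region was 1.23 to 1.52 times the shorter one, and all but the last had dips of 1381 bases or less. Their choice by summed length, with each region under 10000 bases, itself keeps this ratio low.

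The flanks of a dip differed in length about as much as lone regions far apart did. The longer region was 1.60 times the shorter one at the median (1.57 to 1.67), which is 0.67 on the log2 scale. Lone regions taken 2 by 2 in order along each autosome, each used once, gave 5815 couples a median of 66.2 kb apart, and their median ratio was 1.61 (1.59 to 1.63). Lengths were within 2-fold in 791 of 1201 pairs (65.9%, 63.1 to 68.5%) and in 3916 of 5815 lone couples (67.3%, 66.1 to 68.5%). The difference was -1.48 percentage points (-4.46 to 1.41). Ratios above 4 occurred in 67 pairs (5.58%, 4.42 to 7.02%) and in 4.69% of lone couples (4.18 to 5.27%). Long regions were more frequent among paired than among lone regions, and the part of length in this comparison was not tested.

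Of the 3 gap classes, the one below the rule's range had the most equal flanks. For the 1106 isolated pairs with gaps under 1000 bases the median ratio was 1.47 (on the log2 scale 0.56, 0.51 to 0.59), and 74.1% were within 2-fold, 8.19 points more than for the dips (4.45 to 11.9). Those regions were also shorter, with a median of 1644 bases, and the part of length in this difference was not tested. The 685 pairs with gaps over 3000 to 5000 bases had a median ratio of 1.61 and 66.3% within 2-fold. Within the rule's range, dips of 1000 to 1250 bases had a median log2 ratio of 0.59 (0.48 to 0.67), dips of 2250 to 2500 bases had the highest, 0.92 (0.70 to 1.13), and dips of 2750 to 3000 bases had 0.63 (0.42 to 0.84), so asymmetry did not follow width steadily. Median member length went from 1881 bases at the narrowest dips to 2350 at the widest.

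**Figure D2:**
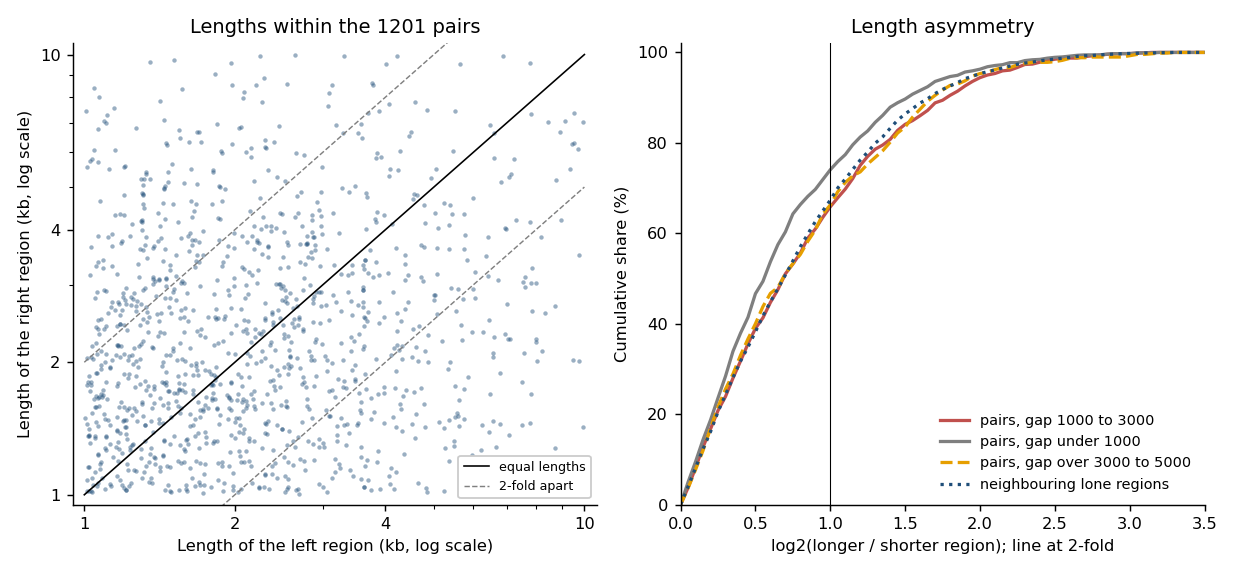
Left panel, length of the right region against that of the left region in each of the 1201 pairs (kb, both axes logarithmic), with lines at equal length and at a 2-fold difference; right panel, cumulative share of pairs by log2 of longer over shorter region for 3 gap classes and for neighbouring lone regions. Points fill the plane with 65.9% between the dashed lines. The curve for the dips lies close to that for lone regions up to a log2 ratio of about 1 and slightly below it beyond (84.1 beside 86.4% at 1.5). The curve for gaps under 1000 bases lies above both over most of the range.

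Within the length bounds, the lengths of left and right region were weakly related. Their Spearman rank correlation over the 1201 pairs was 0.14, beside 0.02 for lone couples, 0.21 at gaps under 1000 bases and 0.06 at gaps over 3000 to 5000. By dip width it went from -0.13 at 2250 to 2500 bases to 0.22 at 2750 to 3000 bases. Over isolated pairs of regions of any length it was 0.03 at gaps of 1000 to 3000 bases. There it was 0.07 at gaps under 1000 and 0.04 at gaps over 3000 to 5000. The values and their order over the gap classes thus depended on the length bounds. No intervals were computed for these correlations. These are descriptions across regions of 1 library, which share depth and calling threshold. Numbers per length class were set beside the product of the left and right length shares. Both regions were 4000 bases or longer in 55 pairs, where the product gives 36.3, a ratio of 1.51, the furthest from 1 of the 9 classes. Pairs with both regions under 2000 bases numbered 288 against 253.4, and those with a left region of at least 4000 and a right one under 2000 bases numbered 65 against 89.9. The mirrored class, short on the left and long on the right, numbered 86 against 102.4. Not every unlike class was below the product: a left region of at least 4000 bases with a right one of 2000 to under 4000 occurred in 83 pairs against 76.7.

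The longer region lay on either side about equally often. The left region was the longer one in 576 of 1201 pairs (48.0%, 45.1 to 50.8%), and no pair had regions of equal length. Median lengths were 2083 bases (1989 to 2182) on the left and 2174 (2068 to 2287) on the right. The longer region was on the side with the nearer outside neighbour in 632 pairs (52.6%, 49.8 to 55.4%).

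The most symmetric pairs were mostly small. On chromosome 3, regions of 4127 bases (96253742 to 96257868) and 4124 bases (96260579 to 96264702) flanked a dip of 2710 bases and differed by a factor of 1.001. The next 4 had members of 1022 to 1327 bases. They lay on chromosome 2 (91021812 to 91024967 and 104655401 to 104659305), chromosome 1 (163447309 to 163451173) and chromosome 12 (101739242 to 101744235). In the pair on chromosome 12 the dip, 2818 bases wide, was longer than both regions together and took up 56.4% of the span. Ratios of up to 1.1 were found in 138 pairs (11.5%), beside 11.3% of lone couples.

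The least symmetric pairs combined a broad region with a small one. On chromosome 17, a region of 8883 bases (4492401 to 4501283) lay 1380 bases before one of 1027 bases (4502664 to 4503690), a ratio of 8.65. On chromosome 2, from 71359882 to 71373179, the ratio was 8.44, with 9347 bases on the left of a dip of 2844 bases and 1107 on the right. The other 3 had the small region on the left: on chromosome 16 (52030398 to 52041199, ratio 8.02) and on chromosome 19 (17321804 to 17332223, ratio 7.48, and 44527170 to 44537863, ratio 7.39). In the pair on chromosome 17 the small region had its next outside neighbour 5.11 kb away, just beyond the bound.

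Pairs at the ends of the width range held both long and short regions. After the dip of 1000 bases on chromosome 10, between regions of 6332 and 1102 bases, the next narrowest were 1001 bases on chromosome 5 (101038635 to 101045108) and 1002 bases on chromosome 14 (60056645 to 60061593). The widest dip, 2999 bases on chromosome 3 (27168414 to 27183337), separated regions of 6798 and 5127 bases. It was followed by 2998 bases on chromosome 1 (133030504 to 133044436) and 2995 bases on chromosome 3 (96432772 to 96440799). That last pair, with regions of 2632 and 2401 bases, was 168.1 kb from the most symmetric pair of all, measured between their nearest edges.

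The order of the deposited list was used as a further measure besides position and length. The header does not say what the order follows. Over all 48130 regions the place in the list ran with length (Spearman rank correlation -0.97, so longer regions come earlier) and not with position (between -0.06 and 0.07 per autosome). Because place and length run together so closely, places were compared at like length. In each pair the longer region usually came first, in 1075 of 1201 pairs (89.5%).

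At like length, paired regions stood earlier in the list than lone regions, except among the longest. For regions of 1000 to under 1500 bases the median place was 27060 (26532 to 27536) for paired and 29046 (28844 to 29208) for lone regions, with median lengths of 1225 and 1223 bases. At 2000 to under 3000 bases the places were 13323 (12921 to 13685) and 14856 (14688 to 15021). At 6000 to under 10000 bases they were 2204 (1980 to 2412) and 2224 (2132 to 2361), a difference within the counting interval. With lone regions of the same 100-base length class as reference, 1604 of 2402 paired regions (66.8%, 64.9 to 68.6%) stood before the lone median.

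This earlier place was shared with other regions that had a near neighbour. Among regions of 1000 to under 1500 bases the median place was 25764 in isolated pairs with gaps under 1000 bases, 27060 in the pairs described here, 28462 in those with gaps over 3000 to 5000 bases and 29046 for lone regions. All other autosomal regions of that length, most of them in longer runs, had a median place of 27169, close to the paired ones. The number that ends each region's name was less informative: it ran weakly with length (Spearman between -0.29 and -0.19 per autosome), and its median percentile within the chromosome was 41.8 (40.1 to 43.7) for paired and 44.4 (43.5 to 45.3) for lone regions.

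**Figure D3:**
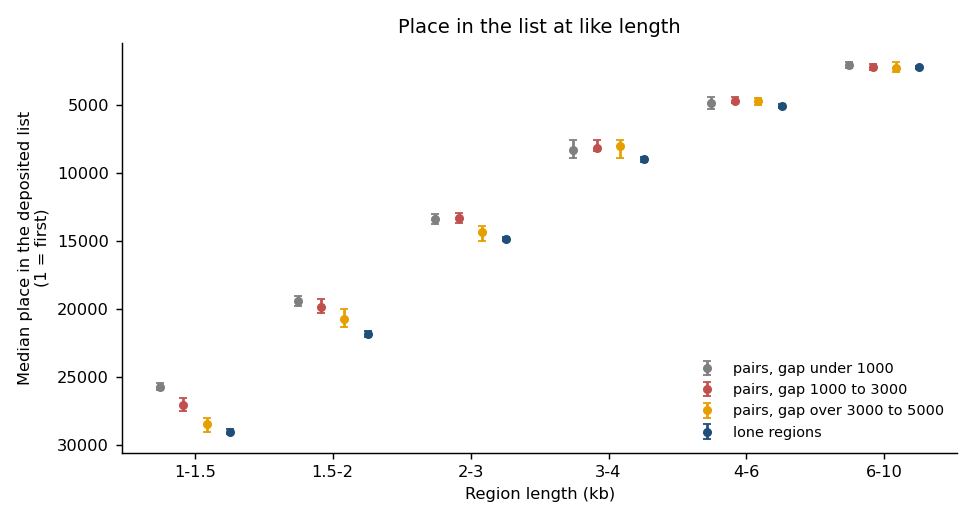
Median place in the deposited list (1 is first, axis inverted) for regions of 6 length classes, with 95% intervals of the median, for isolated pairs of 3 gap classes and for lone regions. From 1 to 3 kb the places run from gaps under 1000 bases or 1000 to 3000 bases, which come first, to lone regions, which come last, and at 6 to 10 kb the classes lie together.

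Pairs lay in slightly more crowded surroundings than lone regions. Within 50 kb of their outer edges there were 4.81 ± 3.06 other regions (mean ± SD over 1201 pairs, median 4), beside 4.11 ± 2.95 for the 11639 lone regions (median also 4). The ratio of the means was 1.17 (1.14 to 1.20, an interval that counts overlapping windows as independent and is therefore too narrow). No other region lay within 50 kb of 71 pairs (5.91%, 4.71 to 7.39%) and of 1150 lone regions (9.88%, 9.35 to 10.4%). The nearer outside neighbour was 10.8 kb away at the median for pairs (10.3 to 11.5) and 12.7 kb for lone regions (12.4 to 12.9).

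The left and right outer gaps of pairs had near-equal medians of 17.5 and 17.6 kb. Between 20 and 50 kb from the centre, regions covered a mean of 13.1% of positions around pairs (11.2 to 16.7% over the distances sampled) and 10.5% around lone regions (9.91 to 11.3%). At 1.5 kb on either side of the dip's centre every pair was covered, which the bounds on gap and length impose. At 3 kb to the right 52.5% were still covered and at 5 kb 17.1%.

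**Figure D4:**
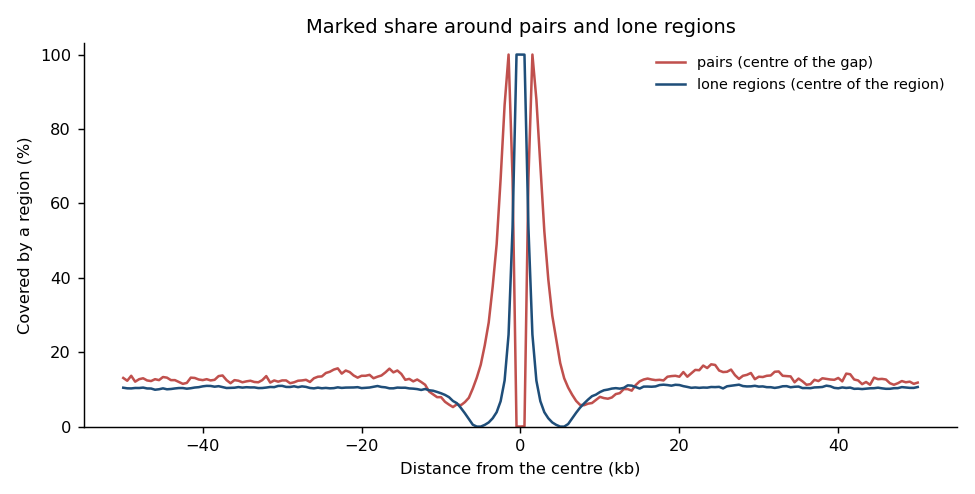
Share of pairs and of lone regions covered by any called region, by distance from the centre of the dip or of the lone region (kb, sampled every 500 bases). The dip, its shoulders and the free stretch just outside follow from the rule; beyond 20 kb the curve for pairs averages 13.1% and that for lone regions 10.5%.

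Pairs were found on all 19 autosomes, from 29 on chromosome 18 to 100 on chromosome 11. Per 1000 regions there were 25.6 over all autosomes and 25.5 ± 3.28 as a mean ± SD over the 19 chromosomes, which do not stand for replicates. Chromosome 10 had the most, 91 pairs or 34.0 per 1000 regions (Wilson 95% interval 27.7 to 41.5), and chromosome 18 the fewest, 21.3 (14.9 to 30.4). The ratio of these extremes was 1.60 (1.04 to 2.51), an interval that does not take into account that they were picked as highest and lowest. It was 2.34 (1.18 to 5.07) with members of at least 1500 bases, between chromosomes 15 and 18. With outer gaps over 10000 bases it was 1.63 (0.96 to 2.83), between chromosomes 3 and 15. The interval of chromosome 10 was the only 1 of 19 that did not hold the value over all autosomes. Chromosome 10 was not the highest under every bound tried: it was chromosome 3 with outer gaps over 10000 bases, chromosome 15 with members of at least 1500 bases and chromosome 11 with gaps of 1500 to 2500 bases. Lone regions ranged from 222.9 to 268.4 per 1000 regions, with 244.9 on chromosome 10.

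Per megabase the order was different, since regions themselves were unevenly spread. Chromosome 11 had 0.84 pairs per Mb, chromosome 10 had 0.72, chromosome 19 had 0.70 and chromosome 14 had the fewest, 0.32. By chromosome, the median dip ranged from 1510 bases on chromosome 10 to 1896 on chromosome 16. The median length ratio ranged from 1.39 on chromosome 16 to 1.90 on chromosome 17. Median member length ranged from 1842.5 bases on chromosome 18 to 2426 on chromosome 19. With 29 to 100 pairs each, these medians are imprecise.

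**Figure D5:**
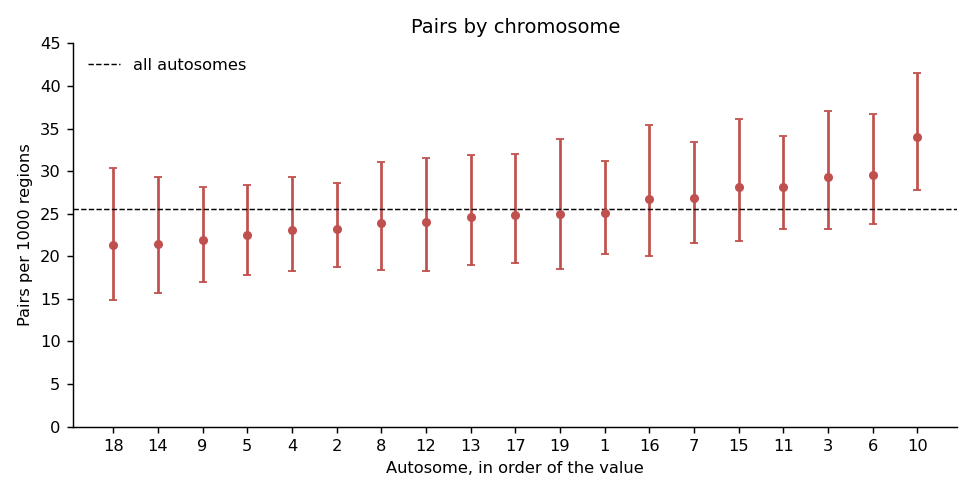
Pairs per 1000 regions on each autosome with Wilson 95% intervals, in order of the value; the dashed line is the value over all autosomes, 25.6. The interval of chromosome 10 (27.7 to 41.5) lies above the line and the other 18 cross it.

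Pairs were thinly spread along the chromosomes, and some lay near each other. Called regions are unevenly spread themselves, and no like values are given for lone regions. Whether pairs were grouped beyond the spread of all regions was not tested. The median distance between neighbouring dips was 781.2 kb, and the quartiles were 230.6 and 2470 kb. Another dip lay within 100 kb of 274 pairs (22.8%, 20.5 to 25.3%). This share moved with the bounds, which also set how many pairs there are. It was 8.71% of 505 pairs at gaps of 1500 to 2500 bases and 40.7% of 2693 pairs at 500 to 4000. The closest dips were 10.0 kb apart on chromosome 7, where the left pair ran from 134092557 to 134096738, and the longest stretch between neighbouring dips was 23.4 Mb on chromosome 4, to the right of the pair from 11647039 to 11652913. Of the megabase windows 766 held a pair, 487 of them exactly 1, and 37 held 4 or more. The fullest window was the megabase from 73000001 to 74000000 on chromosome 17 with 7 pairs, followed by windows with 6 on chromosome 8 (from 74000001), chromosome 10 (from 77000001) and chromosome 15 (from 99000001).

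Some dips came in series. Isolated runs of 3 regions numbered 2172, and in 455 of them both gaps were 1000 to 3000 bases wide. Of the 6450 isolated runs of 2 regions, 2595 had a gap of that width. Whether series were more frequent than the gap widths alone would give was not tested. In 134 of the 455 runs all 3 regions were within the length bounds. In those 134 runs the middle region had a median length of 2120 bases and the end regions 2368, with a median gap of 1828 bases.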

How the data were processed

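Chromatin immunoprecipitation with an H3K4me1 antibody (Ab8895) and an input library were sequenced as single-end reads of 100 bases after 18 cycles of PCR, per the labels' protocols. Bowtie 0.12.9, HOMER 4.7 and mouse build mm9 are named in the submitters' processing notes. Regions were called with findPeaks in histone style against input, 4-fold over input, per the file header. The deposited score column is 1 in every row, so no signal per region was used; the depth of the input library is not given in the sources used here.

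From the deposited start and end positions, gaps, lengths and places in the list were computed with Python 3.11.15 (pandas 2.3.3, scipy 1.17.1, numpy 2.4.6; matplotlib 3.10.9 for figures). The pair finding was tested on simulated data. With 1 library per group no test was made: intervals at 95% are Wilson for shares, Newcombe for differences of shares, order-statistic for medians and exact conditional binomial for ratios of counts. The interval for the ratio of median member to median lone length divides opposite ends of the separate intervals of the medians. It is therefore wider than a 95% interval of that ratio. The members, the rule and the reference sets were chosen with earlier results of these data known. Named pairs are the 6 with the most covered bases, the 5 most equal and 5 most unequal in length, the 3 narrowest and 3 widest dips, and those at each bound; windows and neighbouring dips that stand out were named after their values were seen. The list order, runs of any length and runs of 3 were also added after the file was seen. Alternatives varied every bound of the rule. No genome or gene positions of mm9 were used, so no gene or sequence is given.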

Additional observations from a re-analysis of the deposited data

How the results depend on the processing

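No paired analysis was possible because each group has 1 library. Of 57 alternative values 27 stayed within the interval of the reported value (for numbers of pairs, within 1.5 times) and 30 moved. Directions that changed were those of values near their neutral point. They were the side of the longer region, the ratio of member to lone length, and 2 comparisons with lone couples. These 2 were the share within 2-fold and the median log2 length ratio. That median was below the one of lone couples as reported and at gaps of 500 to 4000 bases. Under every other change of a bound it was above, by small amounts for outer gaps over 3000 bases (0.71 beside 0.70) and over 10000 bases (0.65 beside 0.63). Counts moved by construction, to 505 pairs at gaps of 1500 to 2500 bases, 2693 at 500 to 4000, 644 with members of at least 1500 bases, 1952 with members above the shortest length and no upper bound, and 662 with outer gaps over 10000 bases. The median gap became 1908, 1209 and 1706 bases under the first 3 of these.

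The median log2 length ratio (0.67) was 0.75 and 0.63 under the narrower and the broader gap range, 0.56 with members of at least 1500 bases and 0.92 with members above the shortest length. Lone couples, which the gap range does not touch, stayed at 0.69 under the first 2 and had 0.53 and 0.89 under the length bounds. The share within 2-fold was 69.1% at 500 to 4000 bases, 74.4% with members of at least 1500 bases and 53.4% above the shortest length, beside 67.3, 77.7 and 55.0% for lone couples. With members of at least 1500 bases the left region was the longer one in 51.4%.

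Median member over median lone length (1.01, interval 0.97 to 1.06) was 1.06 and 0.92 for the narrower and broader gap range, 1.09 with members of at least 1500 bases and 1.07 above the shortest length, so it lay on either side of 1. Other regions within 50 kb, pairs over lone regions, gave 1.11 at 500 to 4000 bases and 1.25 with members of at least 1500 bases, and 1.20 in a window of 25 kb. The share with another pair within 100 kb was 8.71% and 40.7% for the 2 gap ranges, 15.1% and 31.8% for the 2 length bounds, and 31.8% and 9.52% for outer gaps over 3000 and 10000 bases. Per Mb, highest over lowest autosome was 2.61, for chromosomes 11 and 14. Per 1000 regions the autosomes at the extremes changed too: chromosomes 15 and 18 with members of at least 1500 bases, 10 and 14 with outer gaps over 3000 bases or gaps of 500 to 4000, 11 and 14 with gaps of 1500 to 2500, and 3 and 15 with outer gaps over 10000 bases. Where a cause is not given, the cause was not tested. Without replicates or tags per region, the depth of a dip could not be measured.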
